A study of Rattus norvegicus with 36 samples.

Results

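Ribosome biogenesis and nucleolar genes were examined in the soleus, a slow postural muscle of the hindlimb, of rats with a contused spinal cord. The set held 44 genes, chosen by name for their place in ribosome production, and 42 of them were measured, out of 14217 genes with a probe set assigned to a single symbol. Npm1 lay only on probe sets that also carry the symbol of a pseudogene, and Npm3 had no listed probe set, so neither nucleophosmin gene was given a value. A gene with several probe sets was represented by the one of highest average signal over the 36 arrays. The 42 genes comprised 6 of RNA polymerase I and its initiation factors, 9 of small nucleolar ribonucleoproteins (snoRNPs), 2 nucleolar proteins grouped here as chaperones, 15 assembly factors of the large ribosomal subunit and 10 of the small subunit.

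Ribosomes are built in the nucleolus, where RNA polymerase I copies the ribosomal DNA into a long precursor RNA. The snoRNPs guide the methylation and pseudouridylation of that precursor, and a large cast of helicases, GTPases and scaffold proteins then cuts, folds and packs it with ribosomal proteins into the large and small subunits. The supply of ribosomes sets how much protein a muscle fibre can make, and ribosome production is known to rise when muscle grows and to change with loading.

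All 36 animals were adult female Sprague Dawley rats, with 6 rats and 6 arrays in each of 6 groups. The injured groups had a moderate contusion of the thoracic cord and were killed on day 3 (SCI3d), day 8 (SCI8d) or day 14 (SCI14d), and control rats (CTR) were age-matched and not injured. Treadmill locomotor training (TM) was begun on day 7, and consisted of 3 sessions before collection in SCI8d + TM and of repeated sessions over 5 days in SCI14d + TM, with trained muscles taken 8 h after the last session. Injured rats also went through anaesthesia, opening of the vertebral arch and pain relief, lived in single cages and were offered a soft dough diet, and with no sham-operated group these cannot be told apart from the cord injury. The values are MAS5 signals of single probe sets, which give relative amounts of 1 transcript between arrays. They are not read here as relative amounts of different genes, though signals were summed over marker lists and probe sets were ranked by brightness. Whole muscle was profiled, so fewer cells of a type and less RNA per cell cannot be told apart.

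Array medians ranged from 166.4 to 234.3 signal units, and no pair of arrays correlated above 0.943. The 12 muscle fibre markers, among them Myh7, Tnnt1 and Acta1, had mean signals at percentiles of 99.87 or higher among probe sets, and limma called 0 of 12 in any comparison with CTR. All 12 nevertheless had a lower mean in SCI14d than in CTR (median log2 fold change -0.32, 6 lower and 0 higher at an unadjusted p under 0.05) and in SCI14d + TM than in CTR (median -0.20, 1 lower and 0 higher). The GAPDH 3' to 5' signal ratio, a sign of RNA quality, was 1.02 to 1.61, with its highest value on CTR replicate 3. Every member probe set lay above the 56.1th percentile of mean signal. "Called" below means an adjusted p under 0.05 in a limma model of all 36 arrays, with p-values adjusted by the Benjamini-Hochberg method over 31042 probe sets. The comparisons with CTR all use the same 6 control arrays.

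The start region of each gene was read from RefSeq to show what the promoters of these genes hold, since many promoters of ribosome biogenesis genes are known to carry the E-box CACGTG, the sequence bound by MYC with its partner MAX. Of the 44 genes, 41 had an entry, which gave 42 windows of 300 bases (250 before and 50 after the annotated start, GRCr8) because Ddx56 had 2; Bop1, Rrs1 and Wdr43 had none. The E-box, which reads the same on both strands, was in 13 of the 42 windows, or 31%. It was in 6.42% of all 33469 windows, in 8.62% of the 13243 windows of genes on the array, and in 9.38% of the 11158 of those with a GC content within the range of the members. By role, the E-box was in 5 of 9 windows of small subunit factors, 4 of 14 of large subunit factors, 2 of 4 of nucleolar chaperones, 2 of 9 of snoRNP genes and 0 of 6 of RNA polymerase I genes. The M4 motif, a palindrome formed by TCTCG and its reverse complement, was in 1 member window, that of Npm1, and in 0.732% of the windows of genes on the array. A match describes these letters only and does not show binding.

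The windows of the 4 E-box genes whose signals are described array by array are shown, 5′ to 3′ on the strand of the gene, with the E-box in capitals. Its first base lies 20 bases after the annotated start of Tsr1 (chr10:60258540-60258839, plus strand), 30 after that of Ebna1bp2 (chr5:137433284-137433583, plus strand), 21 after that of Fbl (chr1:92597157-92597456, plus strand), and at -25, upstream of the start, in Gnl3 (chr16:6219733-6220032, minus strand).
Tsr1: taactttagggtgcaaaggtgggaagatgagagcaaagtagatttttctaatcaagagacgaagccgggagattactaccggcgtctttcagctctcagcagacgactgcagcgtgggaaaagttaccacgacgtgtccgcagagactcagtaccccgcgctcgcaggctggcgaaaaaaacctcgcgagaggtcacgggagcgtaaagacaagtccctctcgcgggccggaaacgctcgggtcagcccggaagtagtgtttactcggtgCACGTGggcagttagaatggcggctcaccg
Gnl3: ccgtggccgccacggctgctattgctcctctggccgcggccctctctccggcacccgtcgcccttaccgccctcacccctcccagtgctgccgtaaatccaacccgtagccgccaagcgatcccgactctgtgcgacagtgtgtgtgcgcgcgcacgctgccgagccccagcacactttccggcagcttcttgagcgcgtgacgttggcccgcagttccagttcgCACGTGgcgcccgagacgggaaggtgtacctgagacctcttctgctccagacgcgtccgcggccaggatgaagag
Ebna1bp2: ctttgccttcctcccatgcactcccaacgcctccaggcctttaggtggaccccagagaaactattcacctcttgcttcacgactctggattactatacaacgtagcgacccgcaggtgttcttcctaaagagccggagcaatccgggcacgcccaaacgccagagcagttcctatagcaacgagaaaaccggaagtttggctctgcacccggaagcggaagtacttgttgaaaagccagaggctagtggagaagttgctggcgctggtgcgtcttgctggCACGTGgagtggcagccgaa
Fbl: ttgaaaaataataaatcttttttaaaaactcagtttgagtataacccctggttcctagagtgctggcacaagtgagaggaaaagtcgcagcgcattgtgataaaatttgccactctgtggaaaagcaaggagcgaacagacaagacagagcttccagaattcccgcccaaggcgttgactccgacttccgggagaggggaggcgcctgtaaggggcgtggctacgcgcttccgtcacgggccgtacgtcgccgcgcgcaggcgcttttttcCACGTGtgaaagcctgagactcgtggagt

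On day 3 after injury the transcripts of this machinery were higher almost as a block. Of the 42 genes, 37 were called higher in SCI3d than in CTR and 0 lower, and all 42 had a higher mean. Over all probe sets 7.22% were called higher and 9.24% lower, and among the 8527 genes at least as bright as the dimmest member 13.5% were called higher. The median log2 fold change was 0.82 over the members, with a range of 0.05 to 1.56, against -0.04 over all probe sets. In 27 members every SCI3d array was above every CTR array, a pattern seen in 3.42% of all probe sets. The 5 genes that were not called were Ubtf, Rrp1b, Nop10, Utp20 and Polr1b, with log2 fold changes of 0.05 to 0.34. Of the 16 further probe sets that 10 of the members have, all had the same sign as the one used and 9 were called.

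**Figure D1:**
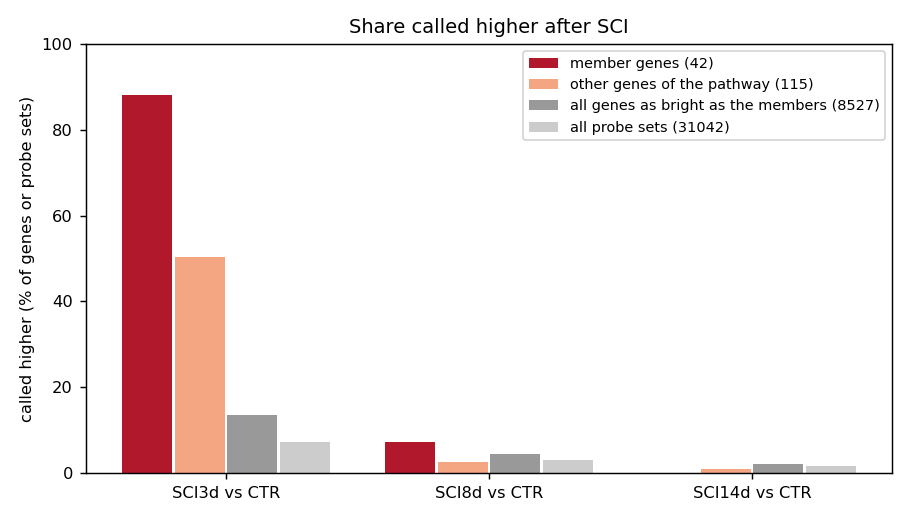
Share of genes or probe sets called higher (y axis, percent) on day 3, 8 and 14 after SCI against CTR. The sets are the 42 members, 115 other genes of the pathway, 8527 genes at least as bright as the dimmest member and all 31042 probe sets. The members stand at 88.1% on day 3, 7.14% on day 8 and 0% on day 14.

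In the assembly of the small subunit 9 of 10 genes were called higher, with a median log2 fold change of 0.88, and the genes with the largest fold changes of the 42, Tsr1 and Wdr43, are among them. Tsr1, a GTPase-like protein that sits on the late small subunit precursor and is released before it can translate, had signals of 4413, 5505 and 8196 (lowest, median and highest) in SCI3d, against 1698, 2046 and 2326 in CTR. The lowest injured muscle lay far above the highest control, and the log2 fold change was 1.56 (SE 0.21, adjusted p = 2.90e-06). Wdr43, of the complex that joins transcription of the precursor to its first processing steps, had signals of 2045, 2729 and 3992 in SCI3d and 873, 991 and 1149 in CTR. Its log2 fold change was 1.48 (SE 0.21, adjusted p = 4.39e-06), and its second probe set gave 1.54. Nop14, a scaffold of the early small subunit precursor, had signals of 467, 676 and 891 in SCI3d and 260, 356 and 396 in CTR, and its log2 fold change was 0.94 (SE 0.16, adjusted p = 4.61e-05). Rrp12, needed for export of the precursors, rose by 1.10, and Heatr1, Nob1, Ddx10, Bysl and Ltv1 rose by 0.91, 0.85, 0.78, 0.66 and 0.58 on the log2 scale. Nob1 is the nuclease that makes the final cut of the small subunit RNA. Utp20 had a log2 fold change of 0.33 (adjusted p = 0.228).

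In the large subunit, 14 of 15 assembly genes were called higher, also with a median of 0.88. Wdr12, which forms a complex with Pes1 and Bop1, had signals of 1534, 2195 and 3070 in SCI3d and 757, 834 and 1041 in CTR. Its adjusted p was the smallest of the members at 1.18e-06, with a log2 fold change of 1.36 (SE 0.17). Its partners Bop1 and Pes1 rose by 0.99 and 0.82, so all members of the complex were higher. Ddx21, an RNA helicase of the nucleolus, had signals of 3044, 3779 and 6198 in SCI3d and 1284, 1603 and 2231 in CTR, and its log2 fold change was 1.33 (SE 0.21, adjusted p = 2.87e-05). Ebna1bp2, a nucleolar scaffold of the early large subunit precursor, had signals of 2114, 2889 and 4157 in SCI3d, against 1464, 1559 and 1683 in CTR, and rose by 0.94 on the log2 scale (SE 0.15, adjusted p = 3.11e-05). SCI3d and CTR arrays did not overlap in Wdr12, Ddx21 and Ebna1bp2, and did in Bop1 and Pes1. Nip7 rose by 1.14, and Nle1, Mrto4, Wdr74, Grwd1, Rrs1, Ddx56, Nop16 and Nop2, the last a methyltransferase of ribosomal RNA, rose by 0.59 to 0.92. Rrp1b had a log2 fold change of 0.18 (adjusted p = 0.678).

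Both modifying snoRNP classes took part, with 8 of 9 genes called higher. In the box C/D class, which methylates the precursor, Nop58 had signals of 2515, 4103 and 6206 in SCI3d and 1549, 1713 and 1843 in CTR, which is 1.23 higher on the log2 scale (SE 0.19, adjusted p = 2.03e-05). Fbl, the methyltransferase of the class, had signals of 1698, 2354 and 3829 in SCI3d and 1366, 1563 and 1709 in CTR, so the lowest injured array lay within the control range. Its log2 fold change was 0.66 (SE 0.19, adjusted p = 0.0122). Without SCI3d replicate 2 Fbl was not called (adjusted p = 0.0542). Nop56, another core protein of the class, rose by 0.50 (adjusted p = 0.0414), a call that was lost without any 1 of CTR replicates 1, 3, 4, 5 and 6 or SCI3d replicates 1, 2 and 6. In the H/ACA class, which forms pseudouridine, Gar1 and Nhp2 rose by 1.18 and 0.88 and the enzyme Dkc1 by 0.65, whereas their small partner Nop10 had a log2 fold change of 0.20 (adjusted p = 0.229). Nolc1, which escorts snoRNPs within the nucleolus, rose by 1.01, and Rrp9 by 0.67.

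Gnl3 (nucleostemin), a GTPase of the nucleolus abundant in dividing and stem cells, had signals of 3401, 5390 and 9410 in SCI3d and 1774, 2249 and 2531 in CTR. Its log2 fold change was 1.35 (SE 0.23, adjusted p = 6.49e-05). Nucleolin, Ncl, which binds the precursor as it is made, rose by 0.82 (SE 0.15, adjusted p = 0.000135). Signals of both genes did not overlap between SCI3d and CTR.

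Of the genes of RNA polymerase I 4 of 6 were called higher, with a median log2 fold change of 0.48, the lowest median of the roles. Polr1a, the largest subunit of the enzyme, had signals of 1102, 1332 and 1745 in SCI3d and 802, 823 and 887 in CTR, which is 0.69 higher on the log2 scale (SE 0.15, adjusted p = 0.00102). Polr1c and Polr1d, subunits shared with RNA polymerase III, rose by 0.59 and 0.51, and Rrn3, which recruits the polymerase to the ribosomal DNA, by 0.44. Polr1b had a log2 fold change of 0.34 (adjusted p = 0.308). Ubtf, the factor that coats active ribosomal DNA, had signals of 1015, 1156 and 1507 in SCI3d and 1020, 1132 and 1334 in CTR, which overlapped almost completely (log2 fold change 0.05, 95% interval -0.21 to 0.31, and -0.020 without SCI3d replicate 2). The further probe sets of Polr1d and Rrn3 gave 1.02 and 0.57 (adjusted p = 6.33e-05 and 0.00105). Those of Ubtf gave 0.84, 0.22 and 0.01 and were not called. The median of this role depends on the probe sets used. No test of the difference between roles was made.

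**Figure D2:**
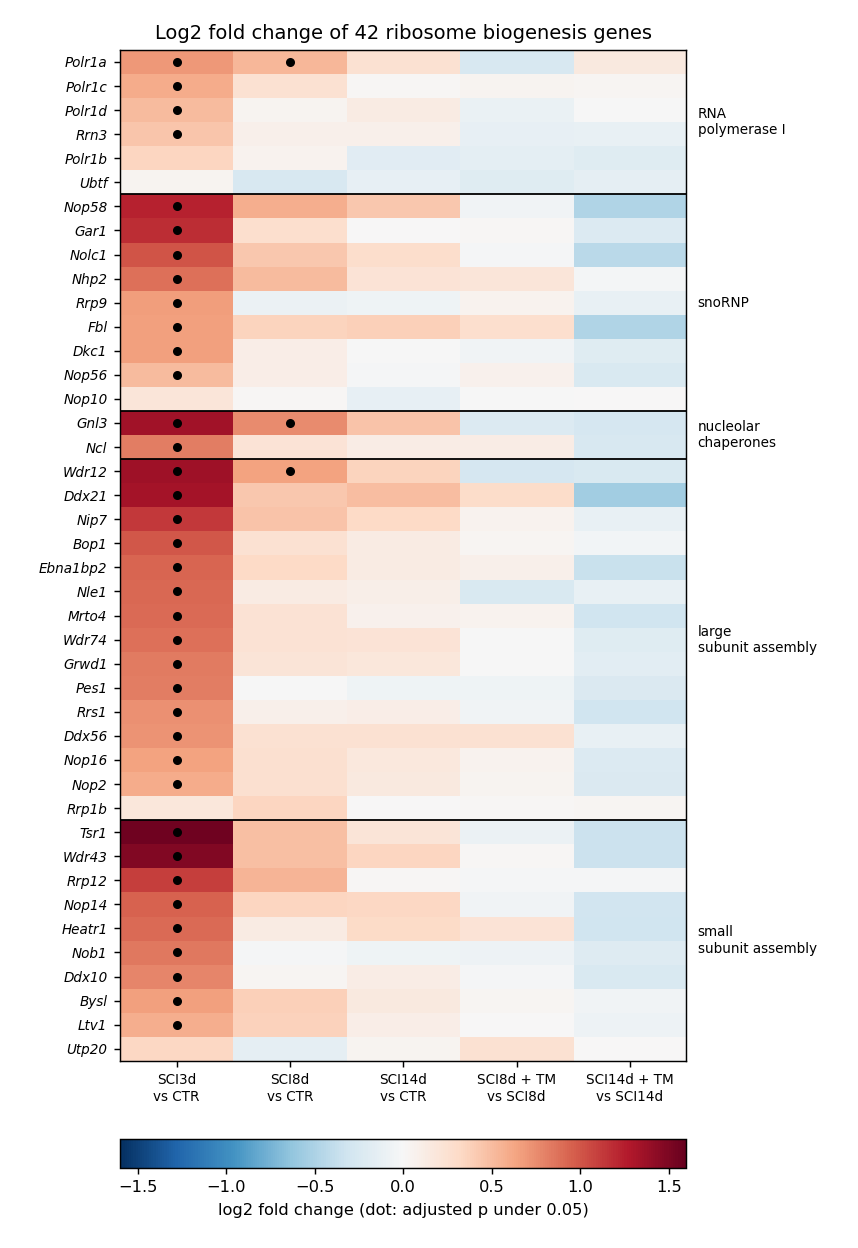
Log2 fold change (colour, red higher and blue lower in the first-named group) of the 42 measured genes, grouped by role and ordered by the day 3 change, in 5 comparisons. Black dots mark the genes called, 37 in SCI3d vs CTR, 3 in SCI8d vs CTR and 0 in the others.

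The size of the rise differed between the SCI3d rats, and in most genes the same rats were highest. The mean log2 signal of the 42 genes, set against the CTR mean, was 0.81 ± 0.31 in SCI3d (SD, n = 6), with arrays from 0.50 to 1.28, while the CTR arrays lay between -0.03 and 0.02. Replicates 2 and 1 of SCI3d were highest at 1.28 and 1.10, the others were at 0.75 or below. Replicate 2 gave the highest signal of the group in 28 of the 42 genes and replicate 1 in 11. Each of the 6 injured muscles was above every control in at least 33 genes. The within-group SD of log2 signal had a median of 0.39 over the members in SCI3d and of 0.15 in CTR. Over the genes at least as bright as the dimmest member it was 0.32 in SCI3d and 0.22 in CTR. With SCI3d replicates 1 and 2 both left out, 25 genes were called higher and 0 lower, with a median log2 fold change of 0.62.

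**Figure D3:**
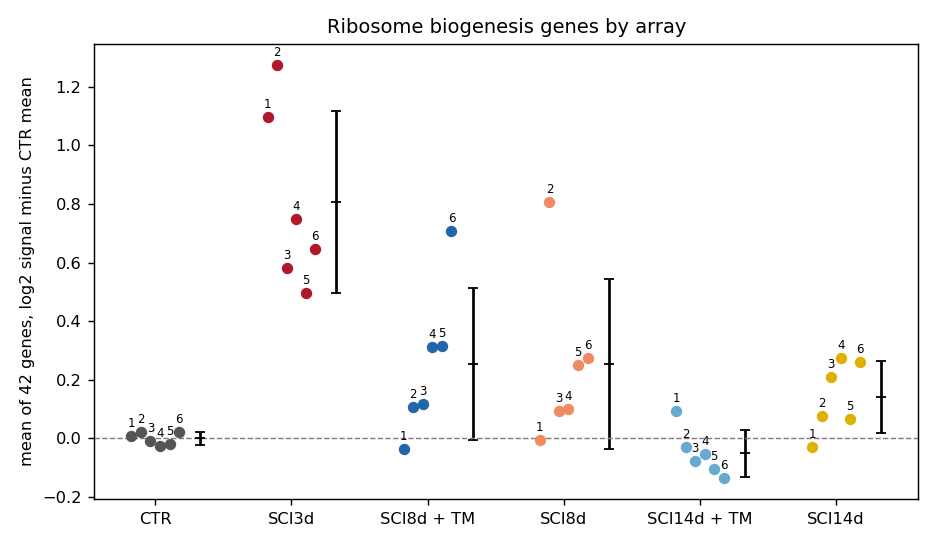
Mean log2 signal of the 42 genes on each array minus the mean over CTR arrays (y axis), by group, with the replicate number above each point and the group mean ± SD (n = 6) beside it as a bar. All SCI3d arrays lie between 0.50 and 1.28, above all CTR arrays, and SCI8d replicate 2 at 0.81 and SCI8d + TM replicate 6 at 0.71 stand above the others of their groups.

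Markers of other cell types changed on day 3 as well. Of 4 erythrocyte and blood markers 3 were called higher, with summed signals of 40579 to 76464 in SCI3d and 35742 to 48127 in CTR. Most of the CTR sum was Hbb, with a mean signal of 39595. Of 8 tendon and cartilage markers 6 were called lower (sums of 14891 to 33787 in SCI3d and 15566 to 98000 in CTR), and of 9 adipocyte markers 5 were (7752 to 19776 in SCI3d and 16243 to 46586 in CTR). Of 15 proliferation markers 1 was called higher, with a median log2 fold change of 0.18. Their summed signal was 3750 to 7713 in SCI3d and 4827 to 6309 in CTR. Most of the CTR sum was Pcna, with a mean signal of 4372, so the sums say little of the other markers. Macrophage and leukocyte markers had 1 of 14 called higher and 1 lower, with sums of 22381 to 68539 in SCI3d and 20531 to 47820 in CTR; the highest sum was that of SCI3d replicate 2. All 9 endothelial markers had a lower mean and 1 was called, and their sums did not overlap (11024 to 13335 in SCI3d and 13746 to 16115 in CTR). Of 7 myogenic markers 1 was called higher and 1 lower (12519 to 37607 in SCI3d and 17812 to 26025 in CTR), of 12 fibroblast markers 1 was called lower (77335 to 162283 in SCI3d and 79334 to 247407 in CTR), and of 6 Schwann cell markers 1 was called lower (9926 to 14325 in SCI3d and 10749 to 17708 in CTR). The part of these cells in the rise of the ribosome biogenesis genes was not tested.

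The rest of the pathway, 132 listed genes that are not members and of which 115 were measured, also held many genes that were higher on day 3. Of the 115, 58 were called higher and 2 lower, with a median log2 fold change of 0.50. Among large subunit factors 23 of 40 rose, led by p-value by Gnl2 (1.54), Ppan (1.44), Tex10 (1.78) and Lsg1 (0.70), and Gnl3l, a relative of Gnl3, fell by 0.41. Among small subunit factors 26 of 40 rose, with Tbl3 at 1.14, Riok1 and Bud23 at 0.82 and Imp4 at 0.65. Of 15 RNA polymerase I factors 5 rose, which were Polr1e (1.32), Polr1g (1.26), Taf1d (1.18), Taf1c (0.95) and Polr1f (0.52), all parts of the enzyme or of its promoter factor. Of 9 further snoRNP factors 3 rose, Znhit3, Nufip1 and Tgs1, by 1.29, 0.80 and 0.50, and Pih1d1 fell by 0.46. The exosome, which trims and degrades the precursor, had 1 of 11 genes called higher, Exosc1, with a log2 fold change of 0.79.

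The transcripts of the MYC network, the best known regulators of these genes, were not called against CTR on any day. Myc had a mean signal of 1792 ± 907 in SCI3d and of 869 ± 459 in CTR (SD, n = 6 each). The log2 difference was 1.08 with a standard error of 0.46, and it did not pass (adjusted p = 0.109). On single arrays it was highest on SCI3d replicate 2 at 3462 and next on replicate 1 at 2003, the arrays with the highest mean of the 42 genes, and the other SCI3d arrays were at 873 to 1660. Myc was 1734 ± 1024 in SCI14d (SD, n = 6, range 370 to 3051), where 0 members were called against CTR. SCI8d replicate 2, the array with the highest member mean of its group, had 1255 against 1269 on replicate 4, and SCI8d + TM replicate 6, likewise highest in its group, had 793, within the range of 402 to 1259 of the others. Of 12 genes of the network limma called 0 on day 3 in either direction (2 higher and 0 lower at an unadjusted p under 0.05), with a median log2 fold change of 0.08. Between the injured groups Myc was called lower in SCI8d than in SCI3d, by 1.67 on the log2 scale (adjusted p = 0.0206). Members with an E-box in the window had a median day 3 log2 fold change of 0.74 (12 genes), and those without 0.82 (27 genes), which is given as a description. Wdr12 and Ddx21 were among those without it. The part of MYC in the values of these genes was not tested, and only its transcript was measured.

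By day 8 few of these genes still passed the test against CTR after adjustment. In SCI8d against CTR, 3 genes were called higher and 0 lower, where 3.01% of all probe sets were called higher and 3.28% lower, and 37 of 42 had a higher mean with a median log2 fold change of 0.24. At an unadjusted p under 0.05 limma had 14 members higher and 0 lower. The unmoderated test had 11 higher and 0 lower before adjustment, where it had 10.4% of all probe sets higher and 9.78% lower. Groups did not overlap in 4 genes, namely Gnl3, Polr1a, Nop58 and Bysl, against 1.26% of all probe sets with every SCI8d array higher. Gnl3 had signals of 2577, 3153 and 7314 in SCI8d and 1774, 2249 and 2531 in CTR (log2 fold change 0.76, SE 0.23, adjusted p = 0.0412). Wdr12 had signals of 920, 1307 and 2288 in SCI8d and 757, 834 and 1041 in CTR (log2 fold change 0.64, SE 0.17, adjusted p = 0.0225). Polr1a had signals of 917, 1200 and 1481 in SCI8d and 802, 823 and 887 in CTR (log2 fold change 0.53, SE 0.15, adjusted p = 0.0261). These 3 were the members called on both day 3 and day 8, but the day 8 call of Gnl3 was lost without any 1 of the 6 CTR arrays, without SCI8d replicate 2, 3, 5 or 6, after median centring, with no intensity trend, with these groups alone, without the 3 arrays of high GAPDH ratio and by the unmoderated test (adjusted p between 0.0501 and 0.149). The day 8 call of Polr1a was lost after median centring, with the GAPDH ratio as a covariate and without SCI8d replicate 2, 5 or 6. That of Wdr12 was lost by the unmoderated test and without SCI8d replicate 2. Nop58, at 1971, 2471 and 4284 in SCI8d and 1549, 1713 and 1843 in CTR, did not pass (adjusted p = 0.0625). A further probe set of Nolc1 was called higher in SCI8d, by 0.89 (adjusted p = 0.0298), while the rest of its probe sets were not called. Of the 15 proliferation markers 6 were called higher in SCI8d and 7 in SCI14d against CTR. Their median log2 fold change was 1.75 in SCI8d and 2.03 in SCI14d. Their sums, which in CTR are mostly Pcna, were 5267 to 10418 in SCI8d, 5392 to 13830 in SCI14d and 4827 to 6309 in CTR. In SCI8d 3 of 12 fibroblast, 3 of 4 erythrocyte and 1 of 7 myogenic markers were also called higher, and 2 of 9 adipocyte, 1 of 9 endothelial, 1 of 8 tendon and 1 of 6 Schwann cell markers lower. In SCI14d 2 fibroblast markers and 1 myogenic marker were called higher, and 1 adipocyte and 1 tendon marker lower. The part of these cells in the values was not tested.

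The day 8 values depended on single rats. SCI8d replicate 2 had a member mean of 0.81 above CTR, within the range of SCI3d, while the other 5 lay between -0.00 and 0.27, and it gave the highest signal of its group in 36 of the 42 genes. Without it 0 genes were called in SCI8d against CTR, and without replicate 1, the lowest, 8 were. Replicate 2 also had the highest sum of erythrocyte and blood markers of its group at 84226, against 42005 to 58818 on the others. Its sum of tendon and cartilage markers was the lowest at 25806, against 41675 to 73379, and its GAPDH ratio was 1.13. Replicate 1 had the lowest sum of myogenic markers of the group at 12064, against 36116 to 54561 on the others. Its median correlation with the other arrays of its group was 0.909, the lowest of all arrays. The part of these in the values of either array was not tested.

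Between day 3 and day 8, 21 members were called lower in SCI8d than in SCI3d, where 3.14% of all probe sets were, with a median log2 fold change of -0.60. Nob1 fell by 0.87 (adjusted p = 0.000553), Tsr1 by 1.08 and Wdr43 by 1.003. In Nob1 every SCI8d array lay below every SCI3d array; in the others of the 21 the groups overlapped. This count rests on the spread shared by all 6 groups. When only SCI8d and SCI3d were modelled 3 genes were called, and the unmoderated test of the methods, after adjustment, called 0. In SCI14d, 31 members were called lower than in SCI3d, where 4.94% of all probe sets were, with a median of -0.66. Over the 42 members every SCI14d array lay below every SCI3d array in 14, of which Ddx56 was not called, against 1.72% of all probe sets. With the pair of groups alone 18 were called. Tsr1, at 1711, 2245 and 3068 in SCI14d and 4413, 5505 and 8196 in SCI3d, fell by 1.35 (SE 0.21, adjusted p = 6.33e-05).

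On day 14 after injury 0 members were called against CTR in either direction (4 higher and 0 lower at an unadjusted p under 0.05), where 1.52% of all probe sets were called higher and 1.67% lower. The unmoderated test of the methods also called 0 after adjustment. Before adjustment it had 11 members higher and 0 lower, where it had 9.70% of all probe sets higher and 7.17% lower. The smallest adjusted p was 0.201, for Ddx21, which had signals of 1672, 2230 and 3269 in SCI14d and 1284, 1603 and 2231 in CTR (log2 fold change 0.49, 95% interval 0.06 to 0.92). The mean was higher for 34 of 42 genes with a median of 0.13, and after median centring of the arrays for 22 with a median of 0.00. Nop58, Nop14 and Wdr12 had log2 fold changes of 0.43, 0.33 and 0.36 (adjusted p = 0.225, 0.260 and 0.273). Nop14 had signals of 388, 410 and 522 in SCI14d, which reached into the 260 to 396 of CTR. A dim further probe set of Nolc1, with a mean log2 signal of 4.06, was called higher in SCI14d, by 2.38 (adjusted p = 0.0456). The rest of its probe sets were not called. Between SCI14d and SCI8d 0 members were called (0 higher and 1 lower at an unadjusted p), as were 0% of all probe sets, and the median log2 fold change was -0.11 with 10 of 42 higher on average, but 0.03 with 22 higher without SCI8d replicate 2. Outside the members, Gnl2 was called higher on day 8 (0.71) and day 14 (0.72), Gnl3l lower (-0.47 and -0.52), and Polr2l, a small subunit shared by the RNA polymerases, lower (-0.52 and -0.65).

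**Figure D4:**
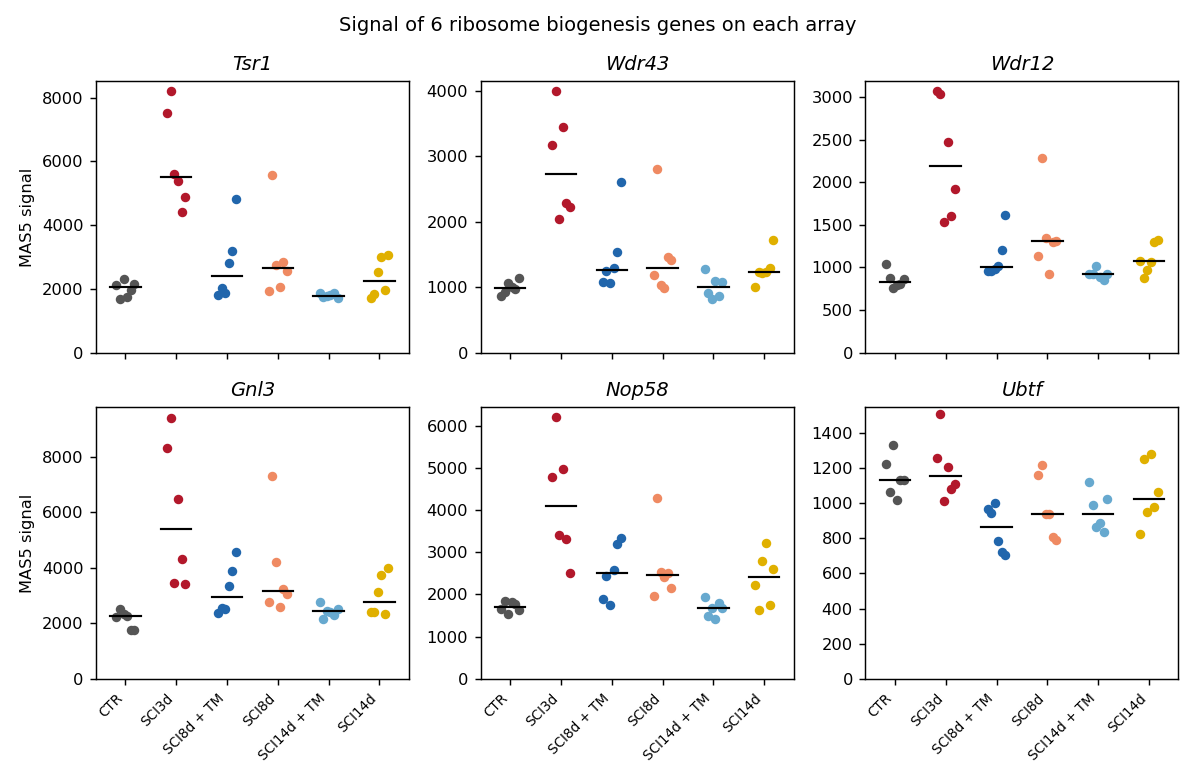
MAS5 signal (y axis, linear from 0) of Tsr1, Wdr43, Wdr12, Gnl3, Nop58 and Ubtf on each of the 6 arrays of each group, with the group median as a line. In all of these but Ubtf the SCI3d points lie above all CTR points.

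No gene of the set passed the test for an effect of treadmill training on either day. After 3 sessions, SCI8d + TM against SCI8d, 0 members were called in either direction (0 at an unadjusted p under 0.05; 0 also by the unmoderated test), as were 0% of all probe sets. The means were higher for 21 genes and lower for 21, with a median log2 fold change of -0.00 (-0.09 after median centring, with 7 higher). This balance rests on single arrays, since 32 were higher without SCI8d replicate 2 (median 0.12) or without SCI8d + TM replicate 1 (0.06), 12 without SCI8d replicate 1 (-0.04) and 8 without SCI8d + TM replicate 6 (-0.09). The largest differences were in Wdr12 at -0.27 (95% interval -0.63 to 0.08), with signals of 953, 1000 and 1616 in SCI8d + TM and 920, 1307 and 2288 in SCI8d, and in Ddx21 at 0.30, with signals of 1947, 2506 and 3875 in SCI8d + TM and 1440, 2101 and 3832 in SCI8d. Polr1a, with the smallest unadjusted p, had signals of 761, 925 and 1487 in SCI8d + TM and 917, 1200 and 1481 in SCI8d (log2 fold change -0.26, 95% interval -0.56 to 0.04).

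After 5 days of training 0 members were called in SCI14d + TM against SCI14d, where 0% of all probe sets were called higher and 0.00322% lower. At an unadjusted p under 0.05 limma had 0 members higher and 5 lower, and the unmoderated test 0 higher and 12 lower, where it had 3.10% of all probe sets lower. After adjustment it called 0. The means were lower for 37 of 42, with a median log2 fold change of -0.20, against -0.03 over all probe sets. After median centring they were lower for 33. The genes were measured on the same rats, so these counts are not of independent values. Ddx21 had signals of 1069, 1456 and 1997 in SCI14d + TM and 1672, 2230 and 3269 in SCI14d (log2 fold change -0.56, 95% interval -0.99 to -0.13, adjusted p = 0.755). Fbl had signals of 1247, 1420 and 1675 in SCI14d + TM and 1473, 1807 and 3770 in SCI14d (log2 fold change -0.48, adjusted p = 0.768). Nop58 had signals of 1417, 1669 and 1931 in SCI14d + TM and 1624, 2413 and 3226 in SCI14d (log2 fold change -0.48, adjusted p = 0.780). Ebna1bp2 had signals of 1208, 1300 and 1505 in SCI14d + TM and 1295, 1676 and 2411 in SCI14d (log2 fold change -0.36, adjusted p = 0.780). In each of these genes some trained arrays lay below the whole SCI14d range and the others overlapped its lower part, and in Ddx21 and Fbl the trained median was below the lowest SCI14d array. Among the 115 other genes of the pathway 0 were called and 91 had a lower mean, led by p-value by Gnl2 at -0.69 (adjusted p = 0.378).

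Whether training acted differently on day 14 and day 8 was tested as an interaction, and 0 members were called (0 higher and 3 lower at an unadjusted p), as were 0% of all probe sets. The smallest adjusted p over the members was 0.918, and the median difference was -0.18.

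**Figure D5:**
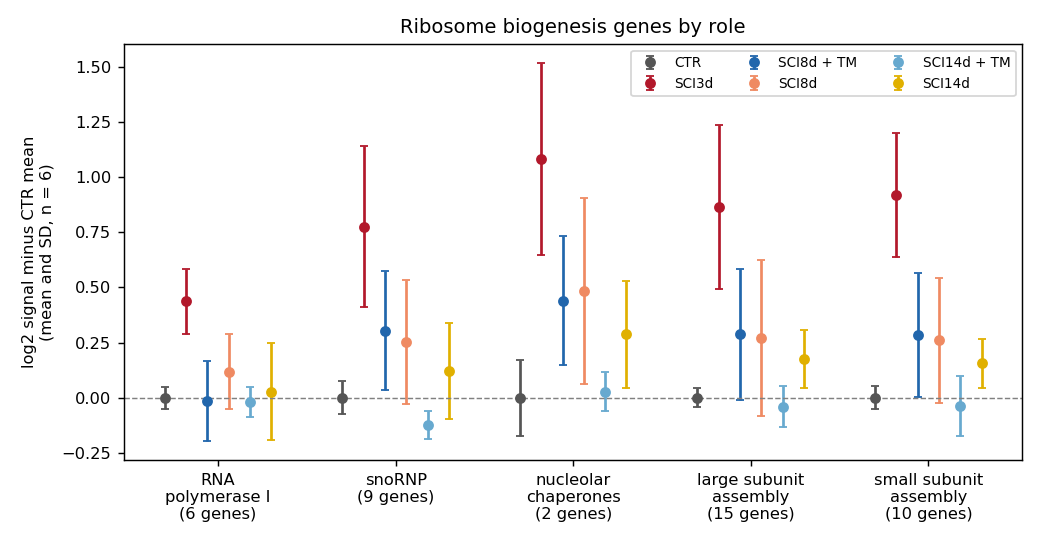
Mean log2 signal minus the CTR mean (y axis) of the genes of each role, by group, with points for the mean over 6 arrays and bars for the SD. SCI3d is highest in each role, and RNA polymerase I genes have the lowest SCI3d mean at 0.44.

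Each trained group was also set against CTR, and the trained groups were not tested against each other. In SCI8d + TM 4 members were called higher (9.52%) and 1 lower, where 6.48% of all probe sets were called higher and 5.71% lower. Among genes at least as bright as the dimmest member 9.02% were called higher, a share near that of the members. At an unadjusted p under 0.05 limma had 15 members higher and 1 lower. Before adjustment the unmoderated test had 17 higher and 1 lower, where it had 15.1% of all probe sets higher and 12.2% lower. The mean was higher for 34 of 42 members, with a median log2 fold change of 0.29, against 0.08 over all probe sets. Nhp2 rose by 0.70 and Bysl by 0.42. Of the members not called, Rrp12, Polr1d and Nolc1 had a further probe set called higher. Their log2 fold changes were 0.74, 0.59 and 0.78 (adjusted p = 0.0219, 0.0224 and 0.0387). The probe set used for Polr1d gave -0.06. The rest of the probe sets of Rrp12 and Nolc1 were not called, and those of Nolc1 reached down to -0.07. Ddx21, at 1947, 2506 and 3875 in SCI8d + TM and 1284, 1603 and 2231 in CTR, rose by 0.72 (adjusted p = 0.0216). Fbl, at 1794, 2521 and 3108 in SCI8d + TM and 1366, 1563 and 1709 in CTR, rose by 0.62 (adjusted p = 0.0251). Ubtf fell, with signals of 704, 865 and 999 in SCI8d + TM, all below the 1020, 1132 and 1334 of CTR (log2 fold change -0.44, SE 0.13, adjusted p = 0.0219). Its other 3 probe sets were not called. The brighter ones among them were at -0.25 and -0.04, and the last, at 1.13 (SE 0.68), was dim, with a mean log2 signal of 4.48. The mean of all 4 probe sets was 0.10 higher in SCI8d + TM. SCI8d + TM replicate 6 stood above its group, with a member mean of 0.71 and the highest signal in 37 of the 42 genes, and without it 1 gene was called higher. Of the 15 proliferation markers 14 were called higher in SCI8d + TM than in CTR, with a median log2 fold change of 2.86. Their sums were 7667 to 19476 in SCI8d + TM and 4827 to 6309 in CTR. Also called higher were 7 of 12 fibroblast (sums of 214501 to 270770 in SCI8d + TM and 79334 to 247407 in CTR), 3 of 7 myogenic (43035 to 54186 in SCI8d + TM and 17812 to 26025 in CTR), 3 of 4 erythrocyte, 2 of 14 macrophage and 1 of 8 tendon markers, and called lower were 5 of 9 adipocyte, 3 of 9 endothelial, 2 of 8 tendon and 1 of 6 Schwann cell markers. The part of these cells was not tested. In SCI14d + TM 0 members were called in either direction, where 0.258% of all probe sets were called higher and 0.0999% lower. Limma had 1 member higher and 1 lower at an unadjusted p under 0.05. The unmoderated test had 2 members higher and 8 lower before adjustment, and 0 after it. Before adjustment it had 8.20% of all probe sets higher and 6.40% lower. The mean over the members was -0.05 ± 0.08 in SCI14d + TM, 0.25 ± 0.26 in SCI8d + TM, 0.14 ± 0.12 in SCI14d and 0.25 ± 0.29 in SCI8d, each against CTR (SD, n = 6).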

How the data were processed

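Soleus RNA of 36 rats was hybridised to Affymetrix Rat Genome 230 2.0 arrays, 1 rat per array. The deposited values are MAS5 signal intensities on a linear scale, which the authors made by global scaling of each array (the 2% trimmed mean was 800.3 to 800.4), with the tool MAS 5 named in the submitters' processing notes. Intensities were taken to log2 with no offset. After removal of 57 control probe sets, 31042 were fitted with limma 3.58.1 (R 4.3.3) in 1 model of 6 groups with a mean-variance trend, and p-values were adjusted by the Benjamini-Hochberg method over all of them. P-values measure the spread between these rats. The number of arrays limits the precision.

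Of all probe sets, 20826 had 1 gene symbol, 436 several and 9780 none. The members and gene lists were chosen with earlier results of these data known. Signals by array were given for members called in at least 2 of the comparisons of SCI3d, SCI8d and SCI14d with CTR and for up to 4 members with the smallest p in each of those and of the training comparisons, and up to 4 other pathway genes were named per list and comparison, by p. The t-test that the methods name was run on the same log2 values and is called the unmoderated test. Promoter windows came from RefSeq (GRCr8). The fit was tested on simulated data. Deviations of same-numbered replicates of different groups correlated at -0.117 to 0.161. In SCI3d against CTR and in SCI8d + TM against SCI8d, 3 of 6 arrays correlated best with the array of their own number. In each other comparison 1 or 2 of 6 did. Numbers were not used to pair rats in the main fit. Alternatives were median centring, quantile and cyclic loess normalization, an offset of 32 before log2, no intensity trend, leaving out the 3 arrays of high GAPDH ratio, that ratio as a covariate, leaving out the dimmest 40% of probe sets, array weights, averaging the probe sets of each gene, the compared groups alone, a replicate block and leaving out each array. Leaving out SCI3d replicates 1 and 2 together was added after seeing the data.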

Additional observations from a re-analysis of the deposited data

Results flagged for a closer look

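Of 102 groups of 6 values examined for a sample far from the others, 8 had one, where chance gives about 5%. SCI8d replicate 2 stood above the rest of its group in Nop14 (signal 618), Nop58 (4284), Wdr43 (2800) and Tsr1 (5569). The same array stood apart in the mean of the members (0.81 above the CTR mean on the log2 scale), of the nucleolar chaperones (1.29) and of the large subunit genes (0.94). SCI14d + TM replicate 1 stood above its group in the mean of the snoRNP genes, at -0.0015.

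Day 3 differed from days 8 and 14 in many members, by limma's test of the injured groups against each other. Between SCI14d and SCI8d that test called 0 members. In SCI8d against SCI3d, 21 members were lower, but 3 with these groups alone and 0 by the unmoderated test. Of the genes described array by array the 21 held Nop14 (-0.60), Nop58 (-0.65), Wdr12 (-0.72), Wdr43 (-1.003), Ebna1bp2 (-0.62), Ddx21 (-0.90) and Tsr1 (-1.08). In SCI14d against SCI3d, 31 were lower, among them Nop14 (-0.62), Nop58 (-0.80), Gnl3 (-0.89), Wdr12 (-1.001), Wdr43 (-1.13), Ebna1bp2 (-0.80), Ddx21 (-0.83), Polr1a (-0.45) and Tsr1 (-1.35).

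Among the array's control probe sets, which enter no comparison, the signal for 5S ribosomal RNA was 1401 on SCI3d replicate 1. It was 213 to 420 on the other SCI3d arrays and 272 to 363 on the CTR arrays.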

How the results depend on the processing

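The count of members higher in SCI3d than in CTR (37) was 25 to 37 under every alternative run, 30 by the unmoderated test and 32 to 37 with 1 array left out, where Nop56, Rrs1, Polr1d, Ltv1 and Fbl were the genes that lost the call on leaving out some array. The smaller counts moved more. For SCI8d against CTR (3 higher) it was 1 after median centring, 5 without the dimmest 40% of probe sets, 8 with array weights, 1 by the unmoderated test and 0 to 8 with 1 array left out; it was 8 without SCI8d replicate 1, 0 without replicate 2 and 1 without replicate 5 or 6. For SCI14d against CTR (0) it was 1, Nolc1, with the probe sets of each gene averaged. For SCI8d + TM against CTR (4 higher) it was 1 after median centring, 7 without the dimmest probe sets, 10 with array weights, 7 with these groups alone, 7 with the mean of probe sets and 1 to 9 with 1 array left out; it was 2 without CTR replicate 1, 9 without SCI8d + TM replicate 1 and 1 without replicate 4 or 6. For SCI8d below SCI3d (21) it was 34 after median centring, 3 with these groups alone, 0 by the unmoderated test and 14 to 29 with 1 array left out. For SCI14d below SCI3d (31) it was 18 with these groups alone, 14 by the unmoderated test and 26 to 31 with 1 array left out. Ubtf in SCI8d + TM against CTR turned to 0.10 with the mean of its probe sets. Ubtf in SCI3d against CTR, not called, was -0.020 to 0.094 with 1 array left out, lowest without SCI3d replicate 2, and -0.059 without SCI3d replicates 1 and 2. The cause of these changes was not tested, beyond the fewer samples of the settings that leave arrays out. Median centring moved the median of all probe sets from 0.13 to -0.10 in SCI14d against SCI3d, from 0.08 to -0.08 in SCI8d against SCI3d, from 0.08 to -0.07 in SCI8d + TM against CTR and from 0.08 to -0.05 in SCI14d against CTR. With the replicate block the counts stayed at 37, 3 and 0 for SCI3d, SCI8d and SCI14d against CTR, 21 and 31 for SCI8d and SCI14d against SCI3d, and 4 higher and 1 lower for SCI8d + TM against CTR. Of 441 values of single genes under the alternatives, 400 kept their direction and side of the threshold, 38 lost the call and 3, all of Ubtf, reversed.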
